A study of Mus musculus with 12 samples.

Results

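The antioxidant response program under the transcription factor NRF2 was followed through 10 genes, picked by gene symbol. They are Nfe2l2, Keap1, Nqo1, Hmox1, Gclc, Gclm, Txnrd1, Srxn1, Osgin1 and Gsr, out of 40077 genes in the cell table and 34508 in the tumor table, and each of the 10 is listed in both. The study sequenced RNA from Myc-CaP, a mouse prostate carcinoma line derived from a tumor driven by a prostate-specific MYC transgene, as cultured cells and as subcutaneous tumors. Cultures received DMSO or YJ1206 at 1 μM for 24 hours, and the tumors grew in male FVB mice dosed orally 3 times a week with vehicle or with 100 mg/kg of YJ1206. Each of these 4 groups has 3 libraries, the labels name no edited allele in any of them, and the age of the mice is not given in the sources used here. YJ1206 is a PROTAC, a molecule that recruits a ubiquitin ligase to CDK12 and CDK13 and so removes the proteins. The kinases themselves phosphorylate RNA polymerase II during elongation. All groups are one cell line, so the spread between libraries says nothing of how other prostate cancers would vary.

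NRF2, the product of Nfe2l2, is a basic leucine zipper factor that is normally held in the cytoplasm and sent for degradation by KEAP1, an adaptor of the CUL3 ubiquitin ligase. Oxidants and electrophiles modify cysteines of KEAP1, whereupon NRF2 escapes degradation, pairs with small MAF proteins and binds antioxidant response elements. Its activity is therefore set largely at the level of protein, which RNA libraries do not measure, and is read here only through transcripts. The target genes encode enzymes that make and recycle glutathione (Gclc, Gclm, Gsr), the thioredoxin and peroxiredoxin repair enzymes (Txnrd1, Srxn1), a quinone reductase (Nqo1), a heme-degrading enzyme (Hmox1) and a growth-inhibitory oxidoreductase (Osgin1).

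The core of the antioxidant response element, TGACNNNGC, was searched on both strands of 300-base promoter windows, which run from 250 bases before to 50 bases after each RefSeq gene start (GRCm38.p6). It was present in at least 1 window of 3781 of 27025 genes. Of the 10 genes, 7 had a window, and 4 of these 7 held the core, namely Nfe2l2, Gclm, Txnrd1 and Srxn1. Hmox1, Gclc and Gsr were not matched to a window. A match of letters is a description and not evidence of binding. The windows of Gclm and Srxn1 are printed because both hold the core, in capitals and on the minus strand in each, while the transcripts of these genes moved in opposite directions in YJ1206-treated cells. The Gclm window lies at chr3:122245307-122245606 and the Srxn1 window at chr2:152105274-152105573, both on the plus strand.
Gclm: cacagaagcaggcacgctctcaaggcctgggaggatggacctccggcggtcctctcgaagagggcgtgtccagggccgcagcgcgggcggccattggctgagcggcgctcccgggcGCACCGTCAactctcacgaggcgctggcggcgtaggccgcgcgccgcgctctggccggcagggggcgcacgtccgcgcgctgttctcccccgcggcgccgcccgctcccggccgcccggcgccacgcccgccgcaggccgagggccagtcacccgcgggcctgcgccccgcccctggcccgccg
Srxn1: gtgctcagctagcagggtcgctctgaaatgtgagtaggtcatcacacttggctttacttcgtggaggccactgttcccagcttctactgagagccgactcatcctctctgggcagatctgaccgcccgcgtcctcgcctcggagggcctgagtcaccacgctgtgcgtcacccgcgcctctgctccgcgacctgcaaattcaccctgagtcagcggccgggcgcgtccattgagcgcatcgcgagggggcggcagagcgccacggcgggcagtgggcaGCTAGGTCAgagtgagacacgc

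Total counts were 18198086 to 18519926 for the DMSO libraries and 13936902 to 14869592 for YJ1206-treated cells. Vehicle tumors held 15391544 to 26928365 counts and YJ1206 tumors 18307820 to 22418665. A floor of 3 counts corresponds to a CPM (count scaled to library size) of 0.162 to 0.215 for the cell libraries and 0.111 to 0.195 for the tumor libraries, which covers counting error only. In the cells, the numbers of the DMSO libraries and those of the YJ1206 libraries belong to separate runs of numbers, so library series and treatment cannot be told apart. The labels do not say whether the libraries of a group came from separate cultures or animals, and the p-values measure only the spread between these libraries. Tumor library 3 lay between libraries 1 and 2 for 99.3% of 425 genes in the vehicle group and 97.9% of 192 genes in the YJ1206 group, counting genes with a mean of at least 100 counts and at least 1 log2 unit apart between those 2 libraries. When library 1 or 2 was put to the same test, the share was 5% to 33.3%. Whether library 3 of the tumors is a separate tumor is therefore uncertain. Numbers of genes called in tumors are given with and without it. For the difference of effects between tumors and cells, only the number over all genes is given without it. Of the epithelial markers read in Myc-CaP, Krt19 was at 113 to 192 CPM in the cell libraries, whereas Epcam had 0 counts in all 6. Of the target transcripts, Cdk12 rose from 122 ± 2.67 to 182 ± 2.75 CPM in cells and from 149 ± 6.71 to 190 ± 14.1 CPM in tumors (mean ± SD, n = 3, adjusted p = 2.26e-14 and 0.0108, edgeR). The tumor call on Cdk12 was lost without vehicle library 3 (adjusted p = 0.0635). Cdk13 did not pass the test in either, at 91.0 ± 2.86 and 92.7 ± 0.92 CPM in cells and 123 ± 4.57 and 128 ± 5.59 CPM in tumors (adjusted p = 0.550 and 0.465), and its direction depended on the scaling.

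Levels of the 10 genes spanned a wide range in every group. TPM values, which are scaled for gene length, place Txnrd1 highest in DMSO-treated cells at 208 ± 6.26 TPM, followed by Gsr at 107 ± 0.65, Gclm at 94.6 ± 4.87 and Gclc at 87.8 ± 2.39 (mean ± SD, n = 3). Keap1 (48.9 ± 1.93 TPM), Nfe2l2 (40.3 ± 0.55), Srxn1 (31.1 ± 1.47) and Hmox1 (18.9 ± 1.5) formed the middle of the order. Osgin1 stood at 3.24 ± 1.36 TPM and Nqo1 at 0.11 ± 0.14 TPM, and no neighbours in this order overlapped between libraries. Nqo1, which encodes the quinone reductase often used as the standard readout of NRF2, was thus almost absent from the cultured cells, with 1, 4 and 0 counts under DMSO and 0, 0 and 1 counts under YJ1206. A change of Nqo1 in the cells was not detectable at this depth, and the gene was not tested there.

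In YJ1206-treated cells Gclm (157 ± 5.78 TPM) and Txnrd1 (147 ± 7.32 TPM) shared the top of the order with overlapping libraries, and Hmox1 (36.4 ± 0.85 TPM) overlapped with Nfe2l2 (40.05 ± 3.30 TPM). In vehicle tumors the top 4 were Gclm (98.1 ± 4.35 TPM), Hmox1 (91.8 ± 36.2), Gsr (82.3 ± 11.6) and Txnrd1 (81.6 ± 9.60), each overlapping with the next. Nqo1 was low there too, at 1.81 ± 0.23 TPM. YJ1206 tumors had Gclm first at 103 ± 3.63 TPM, then Txnrd1 (61.1 ± 1.68), Hmox1 (59.6 ± 18.4) and Gsr (55.3 ± 2.59), of which Hmox1 overlapped with both of its neighbours. The cell and tumor libraries were made and tabulated separately, so these levels are set side by side without a test.

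**Figure D1:**
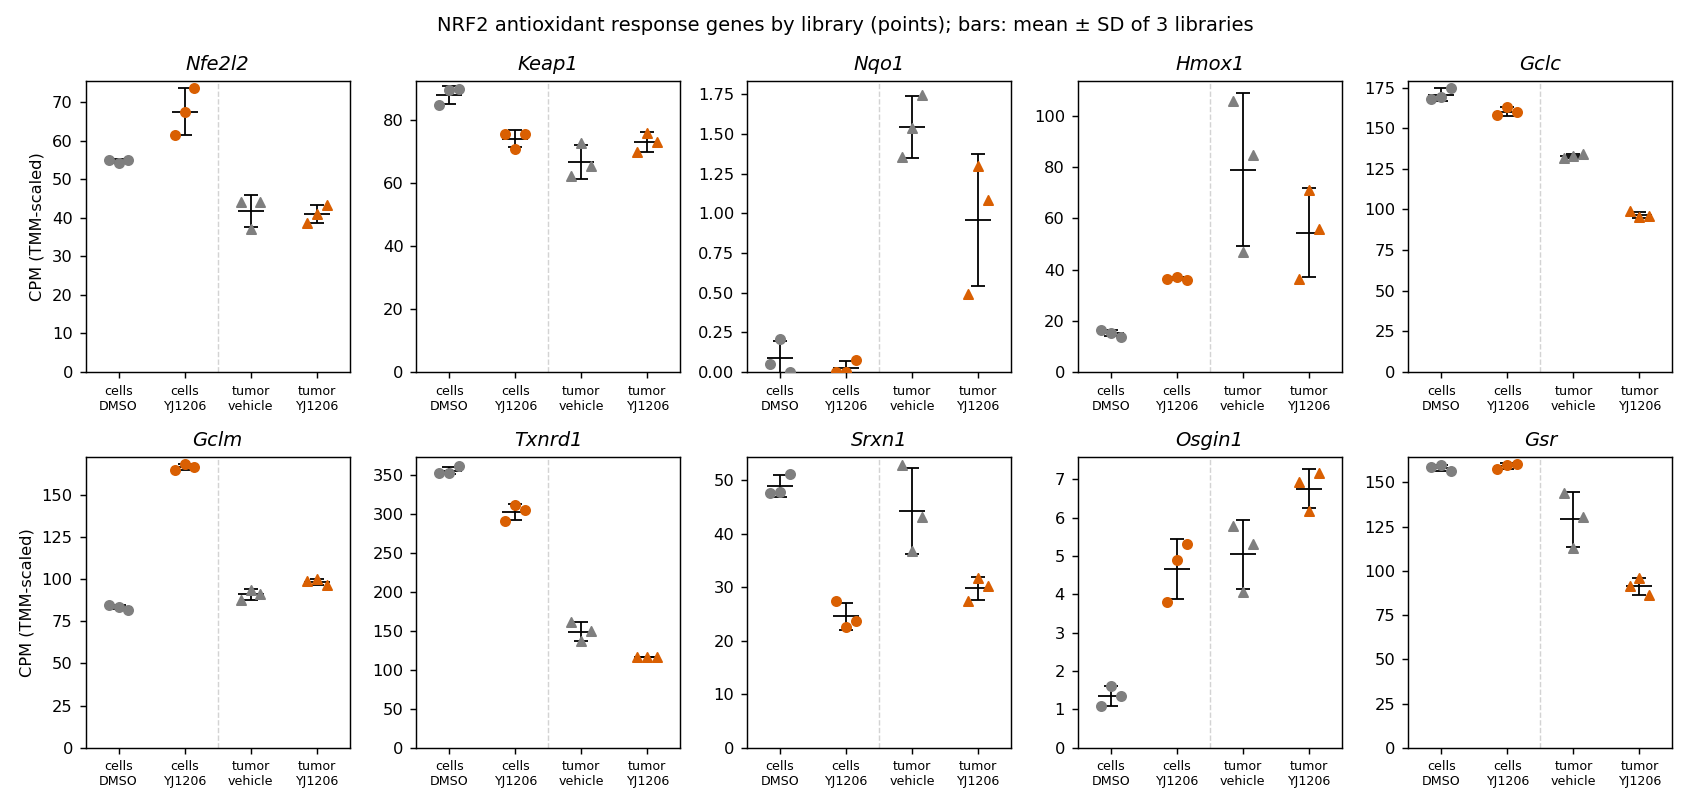
Level of each of the 10 genes in every library, in TMM-scaled CPM on the y axis, with circles for cells, triangles for tumors, grey for DMSO or vehicle and orange for YJ1206. Bars are mean ± SD of 3 libraries. Gclm, Hmox1 and Osgin1 were higher with YJ1206 in every cell library than in any DMSO library, and Gclc, Gsr, Txnrd1 and Srxn1 were lower in every YJ1206 tumor than in any vehicle tumor.

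Whether YJ1206 changed these transcripts in culture was asked first. The program did not move as a unit. Of 9 genes tested, 4 rose (Nfe2l2, Hmox1, Gclm, Osgin1), 4 fell (Keap1, Gclc, Txnrd1, Srxn1) and Gsr did not pass the test. The largest changes were in Osgin1 and Hmox1, which rose 3.45-fold and 2.40-fold, in Gclm, which rose 2.00-fold, and in Srxn1, which fell to 0.504 of its DMSO level. In these cells 76.1% of all 11826 genes tested were called (37.8% higher, 38.3% lower), so 8 of 9 is not far from the share over all genes. With scaling by total counts 3 rose and 5 fell, and with TPM 2 rose and 5 fell. The libraries of the groups did not overlap for 8 of the 9 genes, against 77.5% of all genes. Adjusted p-values are from edgeR's quasi-likelihood test with Benjamini-Hochberg adjustment over all genes tested, at a threshold of 0.05, and all levels in CPM are scaled by TMM, a method that takes most genes as unchanged.

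Of the regulators, Nfe2l2 (chr2:75675513-75704641, minus strand, GRCm38) was at 55.0, 54.2 and 55.1 CPM under DMSO and at 61.4, 67.5 and 73.7 CPM under YJ1206. Every treated library was above every control, and the log2 fold change was 0.30 ± 0.054 (SE, adjusted p = 1.75e-05). This rise depended on the scaling, as described further on. Keap1 (chr9:21229730-21239361, minus strand), whose product marks NRF2 for degradation, was at 84.7, 89.7 and 89.8 CPM under DMSO and at 75.6, 70.9 and 75.7 CPM under YJ1206. All treated libraries were lower, with a log2 fold change of -0.25 ± 0.043 (adjusted p = 9.63e-06). Keap1 overlaps an antisense gene, Gm16754, and use of strand in the counting is not stated in the sources used here, so reads of the 2 genes cannot be told apart.

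The subunits of glutamate-cysteine ligase, the enzyme of the first step of glutathione synthesis, changed in opposite directions. Gclm (chr3:122245557-122270732, plus strand) encodes the modifier subunit that raises the efficiency of the enzyme, and was at 84.5, 83.7 and 81.9 CPM under DMSO and at 165, 168 and 166.5 CPM under YJ1206. The groups were far apart relative to the spread within them (log2 fold change 1.00 ± 0.037 SE, adjusted p = 4.73e-19). Gclm counts are not whole numbers, being up to 0.472 from one, so some of its reads were divided with another gene by the authors' counting. It overlaps the pseudogene Gm6061 and the antisense gene Gm17494. Gclc (chr9:77754535-77794485, plus strand), the catalytic subunit, was at 168, 169 and 175 CPM under DMSO and at 158, 163 and 159.8 CPM under YJ1206. Its libraries did not overlap, but the fall was small, at -0.091 ± 0.035 on the log2 scale (adjusted p = 0.0196). Leaving out 1 library at a time removed the call on Gclc in 3 of 6 fits, with adjusted p = 0.0897 without DMSO library 3, 0.104 without YJ1206 library 1 and 0.0510 without YJ1206 library 3. DESeq2 did not call Gclc either (-0.080, adjusted p = 0.0633), which left 4 genes higher and 3 lower with that tool. Gsr (chr8:33652523-33698163, plus strand), the reductase that regenerates glutathione, was at 159, 159.9 and 156 CPM under DMSO and at 157, 159.6 and 160.5 CPM under YJ1206. These groups overlapped, and the 95% interval of the log2 fold change ran from -0.062 to 0.078 (adjusted p = 0.832).

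Both genes of the thioredoxin branch fell. Srxn1 (chr2:152105516-152111376, plus strand) encodes sulfiredoxin, which repairs overoxidized peroxiredoxins, and was at 47.6, 47.7 and 51.2 CPM under DMSO and at 27.4, 22.6 and 23.7 CPM under YJ1206. The highest treated library was well below the lowest control (log2 fold change -0.99 ± 0.068 SE, adjusted p = 3.33e-13). Txnrd1 (chr10:82833951-82897712, plus strand), the cytosolic thioredoxin reductase, was at 352, 352 and 361 CPM under DMSO and at 290.4, 311 and 305 CPM under YJ1206. Its fall was modest, at -0.23 ± 0.030 (adjusted p = 7.27e-08). Txnrd1 overlaps Eid3, which had 26 to 65 counts in the cell libraries.

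Of the detoxifying genes, Hmox1 (chr8:75093621-75100589, plus strand), which encodes the inducible heme oxygenase, was at 16.4, 15.2 and 13.9 CPM under DMSO and at 36.4, 37.0 and 35.8 CPM under YJ1206. Each treated library was above each control (log2 fold change 1.26 ± 0.076 SE, adjusted p = 1.89e-14). Osgin1 (chr8:119434124-119446256, plus strand) had 21, 31 and 27 counts under DMSO and 53, 65 and 69 under YJ1206. In CPM this is 1.08, 1.60 and 1.36 against 3.79, 4.91 and 5.31, a log2 fold change of 1.79 ± 0.24 (adjusted p = 2.26e-07). On the TPM scale the same libraries overlapped, with Osgin1 at 1.66, 3.97 and 4.08 TPM under DMSO and at 7.88, 3.70 and 3.96 TPM under YJ1206, and the adjusted p was 0.163 (limma on log2(TPM + 1)). The number of counts per TPM of Osgin1, relative to the median gene of each library, varied 3.23-fold between the cell libraries, against 1.02-fold to 1.08-fold for the other members measured. That variation exceeded the variation of 99.7% of 10693 genes. The length that the authors' quantification gave to Osgin1 therefore differed between libraries, and its level per length in cells is uncertain. Nqo1 (chr8:107388225-107403206, minus strand) was near 0 in both groups, as given above.

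The size of each change in the cells, and the direction of some, depended on how libraries were scaled. With TMM the median gene changed by -0.017 on the log2 scale, with scaling by total counts by -0.20 and on the log2(TPM + 1) scale by -0.24. With total counts 77.7% of all genes were called, and on log2(TPM + 1) 73.4% were. Hmox1, Gclm and Osgin1 were higher, and Keap1, Gclc, Txnrd1 and Srxn1 lower, under each of these 3 scalings. Nfe2l2 was called only with TMM among them, at 0.11 with total counts (adjusted p = 0.0582, edgeR) and -0.010 on log2(TPM + 1) (adjusted p = 0.891, limma). Gsr, not called with TMM, had a log2 fold change of -0.18 with total counts (adjusted p = 3.14e-05, edgeR) and of -0.30 on log2(TPM + 1) (adjusted p = 3.38e-05, limma). Relative to the shift of all genes, Gsr stayed close to the median gene under all 3, and Nfe2l2 stayed above it.

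**Figure D2:**
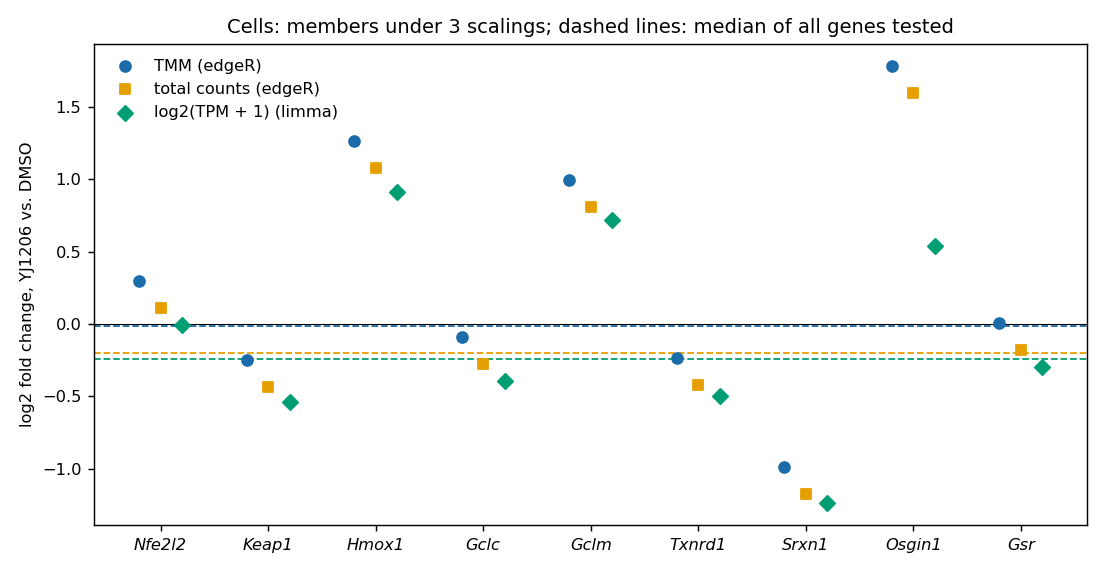
Log2 fold change of 9 genes in YJ1206-treated against DMSO-treated cells under 3 scalings: TMM (blue circles), total counts (orange squares) and limma on log2(TPM + 1) (green diamonds). Dashed lines show the median of all genes tested under each scaling. All genes shift downward from TMM to TPM, which takes Nfe2l2 from 0.30 to -0.010 and Gsr from 0.0083 to -0.30.

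In tumors the question was whether the same genes changed in treated mice. Here 4 of 10 genes passed the test and each of the 4 was lower in YJ1206 tumors, namely Gclc, Gsr, Srxn1 and Txnrd1. They fell to between 0.674 and 0.781 of the vehicle level. With edgeR 0 of the 10 were called higher, with 1 (Osgin1) at an unadjusted p under 0.05, and DESeq2 also called 0 higher. Over all 15558 genes tested in tumors, 26.8% were called (11.9% higher, 14.9% lower), and the groups did not overlap for 7 of the 10 genes against 44.6% of all genes. With libraries 1 and 2 of each group alone, 0 of the 10 genes passed the edgeR test, with 4 of them lower and 0 higher at an unadjusted p under 0.05, and 0.00638% of all genes passed (1 of 15684). In bulk tumors, fewer cells of a type and less RNA per cell cannot be told apart.

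Of the glutathione genes, Gclc was at 132, 133 and 134 CPM in vehicle tumors and at 99.0, 95.1 and 95.8 CPM in YJ1206 tumors. The libraries within each group were close together and the groups did not meet, with a log2 fold change of -0.46 ± 0.049 (SE, adjusted p = 0.00167). Gclc kept its call with any 1 library left out, and with libraries 1 and 2 alone its change was -0.45 (adjusted p = 0.137). Gsr was at 144, 113 and 131 CPM in vehicle tumors and at 91.6, 95.8 and 86.5 CPM in YJ1206 tumors. All treated libraries were below the controls (log2 fold change -0.50 ± 0.095 SE, adjusted p = 0.00904), though without YJ1206 library 3 the adjusted p was 0.0535, and with libraries 1 and 2 alone 0.199. Gclm, the modifier subunit, was at 87.7, 93.8 and 91.5 CPM in vehicle tumors and at 98.7, 100.1 and 96.6 CPM in YJ1206 tumors. These groups did not overlap either, but the difference of 0.11 ± 0.054 missed the threshold (adjusted p = 0.161), with a 95% interval from -0.012 to 0.24.

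Of the thioredoxin branch, Txnrd1 was at 161, 137 and 149 CPM in vehicle tumors and at 116, 116 and 117 CPM in YJ1206 tumors. The treated libraries were nearly equal and lay below all controls (log2 fold change -0.36 ± 0.068 SE, adjusted p = 0.00925), with an adjusted p of 0.0523 without YJ1206 library 3 and 0.207 with libraries 1 and 2 alone. Eid3, which Txnrd1 overlaps, had 99 to 184 counts in the tumors. Srxn1 was at 52.8, 36.7 and 43.1 CPM in vehicle tumors and at 27.4, 31.7 and 30.3 CPM in YJ1206 tumors. Its log2 fold change was -0.57 ± 0.14 (adjusted p = 0.0213), a call that did not survive in 4 of 6 fits with 1 library left out, those without vehicle library 3 or without any 1 of the YJ1206 libraries (adjusted p from 0.0528 to 0.0795). With libraries 1 and 2 alone Srxn1 gave -0.60 (adjusted p = 0.226).

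The regulators and the detoxifying genes did not pass the test in tumors. Nfe2l2 was at 44.1, 37.1 and 44.1 CPM in vehicle tumors and at 38.7, 40.9 and 43.4 CPM in YJ1206 tumors, with overlapping groups and a 95% interval of the log2 fold change from -0.24 to 0.19 (adjusted p = 0.873). Keap1 was at 62.2, 72.6 and 65.5 CPM against 69.8, 76.1 and 73.2 CPM, also overlapping (log2 fold change 0.13 ± 0.076 SE, adjusted p = 0.253). Nqo1 had 30, 41 and 27 counts in vehicle tumors and 9, 29 and 21 in YJ1206 tumors, or 1.35, 1.54 and 1.74 CPM against 0.49, 1.30 and 1.08 CPM. No YJ1206 tumor reached the lowest vehicle tumor, but the interval of the log2 fold change was wide, from -1.49 to 0.16 (adjusted p = 0.208). Osgin1 was at 5.77, 4.05 and 5.30 CPM against 6.94, 6.18 and 7.17 CPM, higher in all 3 treated libraries (log2 fold change 0.43 ± 0.17 SE, adjusted p = 0.101).

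Hmox1 varied widely within both tumor groups. It stood at 106, 46.8 and 84.5 CPM in vehicle tumors and at 36.3, 70.9 and 55.9 CPM in YJ1206 tumors. The groups overlapped, and the log2 fold change of -0.53 ± 0.33 did not pass the test (adjusted p = 0.270), whereas without vehicle library 2 it was -0.80 (adjusted p = 0.0311). Macrophages express Hmox1 strongly, so cell type markers were read beside it. The sum of 10 macrophage markers was 452, 272 and 378 CPM in vehicle tumors and 321, 432 and 385 CPM in YJ1206 tumors. Its largest part was Lyz2, at 192, 114 and 164 CPM and at 101, 132 and 122 CPM. The sum of 4 pan-leukocyte markers was 64.7, 99.1 and 75.9 CPM against 110, 136 and 125 CPM, and none of the 4 passed the edgeR test. Its order of libraries was the reverse of that of Hmox1 in vehicle tumors and the same in YJ1206 tumors. The sum of 6 fibroblast markers was 2301, 743 and 1672 CPM against 515, 1274 and 991 CPM. Within each group, Hmox1 and the macrophage and fibroblast sums were highest in the same library and lowest in the same library. As given above, library 3 lay between libraries 1 and 2 for 99.3% and 97.9% of the genes far apart in the 2 groups. Many genes therefore share such an order, and it cannot tie Hmox1 to these cell types. Of 9 macrophage markers tested, 3 rose and none fell with YJ1206 in the edgeR test, and Marco was at or near 0 throughout (0 to 0.54 CPM). Of the 6 fibroblast markers none passed the test, with edgeR. Skeletal muscle markers, of which 4 of 4 tested were lower with YJ1206, summed to 675, 16.3 and 413 CPM in vehicle tumors and to 8.41 to 9.64 CPM in YJ1206 tumors. Erythroid markers summed to 1283 to 1714 against 422 to 1115 CPM, but of the 5 tested 0 were called higher and 0 lower (edgeR). The part of these cell types in the results for Hmox1 and the other genes was not tested. In the cultured cells 6 of the 10 macrophage markers had 0 counts in all libraries and the sum was at most 5.46 CPM, mostly Cd68.

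**Figure D3:**
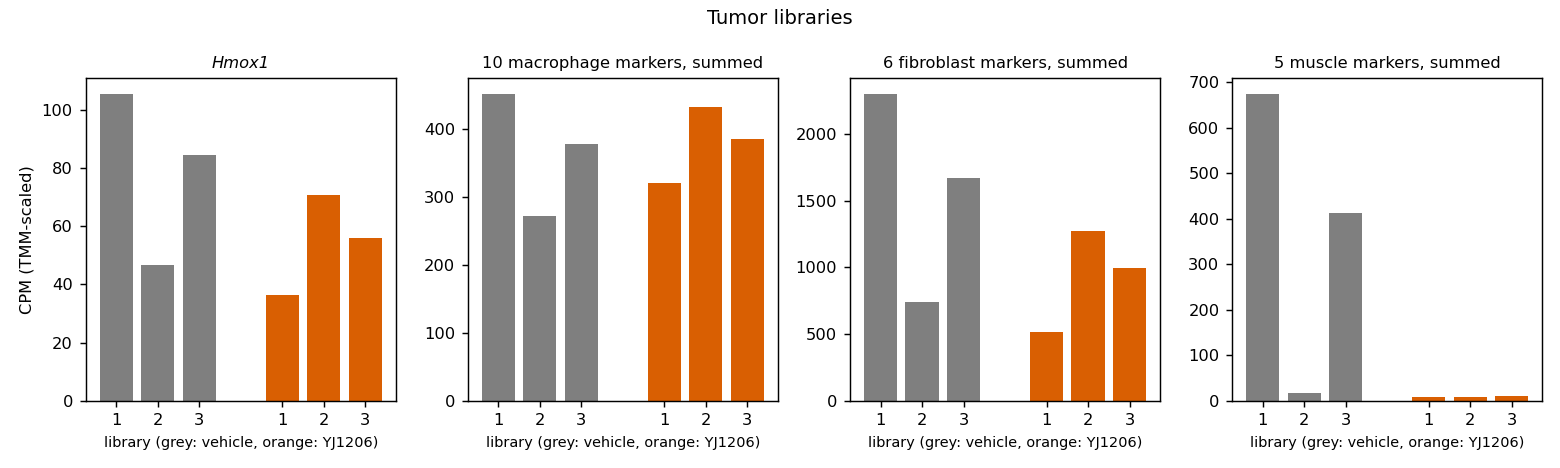
Hmox1 and summed markers of macrophages, fibroblasts and skeletal muscle in each tumor library, in TMM-scaled CPM, with vehicle in grey and YJ1206 in orange. Hmox1 was highest in vehicle library 1 (106 CPM) and lowest in YJ1206 library 1 (36.3 CPM), and within each group its order of libraries was that of the macrophage and fibroblast sums.

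Whether YJ1206 acted differently in tumors and in cells was tested as the difference of the 2 log2 fold changes in one edgeR fit over all 12 libraries. That fit shares 1 estimate of spread per gene between the materials, although tumor libraries varied more than cell libraries. In it Hmox1 in cells had an adjusted p of 0.00228 (edgeR), against 1.89e-14 in the fit on cells alone. Genes called in tumors numbered 5542 of 15328 in it, against 4176 of 15558 in the fit on tumors alone. The effect differed for 7 of 10 genes, and over all 15328 genes tested it differed for 46.8%. With libraries 1 and 2 of each tumor group alone it differed for 5979 of 15411 genes, against 7176 with all libraries. The 10 genes are not reported for that smaller fit, so their calls rest on fits that include tumor library 3 of at least 1 group. The effect in tumors was below that in cells for Hmox1, with a difference of -1.82 ± 0.39 (SE, adjusted p = 0.00156), for Osgin1 (-1.39 ± 0.29, adjusted p = 0.00141) and for Gclm (-0.91 ± 0.057, adjusted p = 5.46e-08). It was also lower for Gsr (-0.54 ± 0.11, adjusted p = 0.000946), Gclc (-0.40 ± 0.055, adjusted p = 5.30e-05) and Nfe2l2 (-0.35 ± 0.12, adjusted p = 0.0257). Keap1 went the other way, with an effect higher in tumors by 0.35 ± 0.086 (adjusted p = 0.00464). The 3 genes that rose most in cells were those whose effect in tumors lay furthest below that in cells, a difference that contains the cell values themselves. The call on Nfe2l2 was lost in 5 of 12 fits without 1 library and with total counts (-0.14, adjusted p = 0.370).

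Txnrd1 and Srxn1 were lower with YJ1206 in both materials, and for neither did the difference of effects pass the threshold. It was -0.15 for Txnrd1 (95% interval -0.33 to 0.020, adjusted p = 0.138) and 0.39 for Srxn1 (95% interval 0.020 to 0.77, adjusted p = 0.0795). Nqo1 was too low in the cells for a useful estimate (0.89, standard error 1.43, adjusted p = 0.665). On the TPM scale the difference was called for 4 genes instead of 7. Nfe2l2 gave -0.082 there (adjusted p = 0.621, limma), Osgin1 -0.057 (adjusted p = 0.926), Gclc -0.13 (adjusted p = 0.101) and Gsr -0.26 (adjusted p = 0.0884), while Srxn1 passed at 0.64 (adjusted p = 0.0126). The median difference over all genes was -0.0092 with TMM and 0.13 on log2(TPM + 1).

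**Figure D4:**
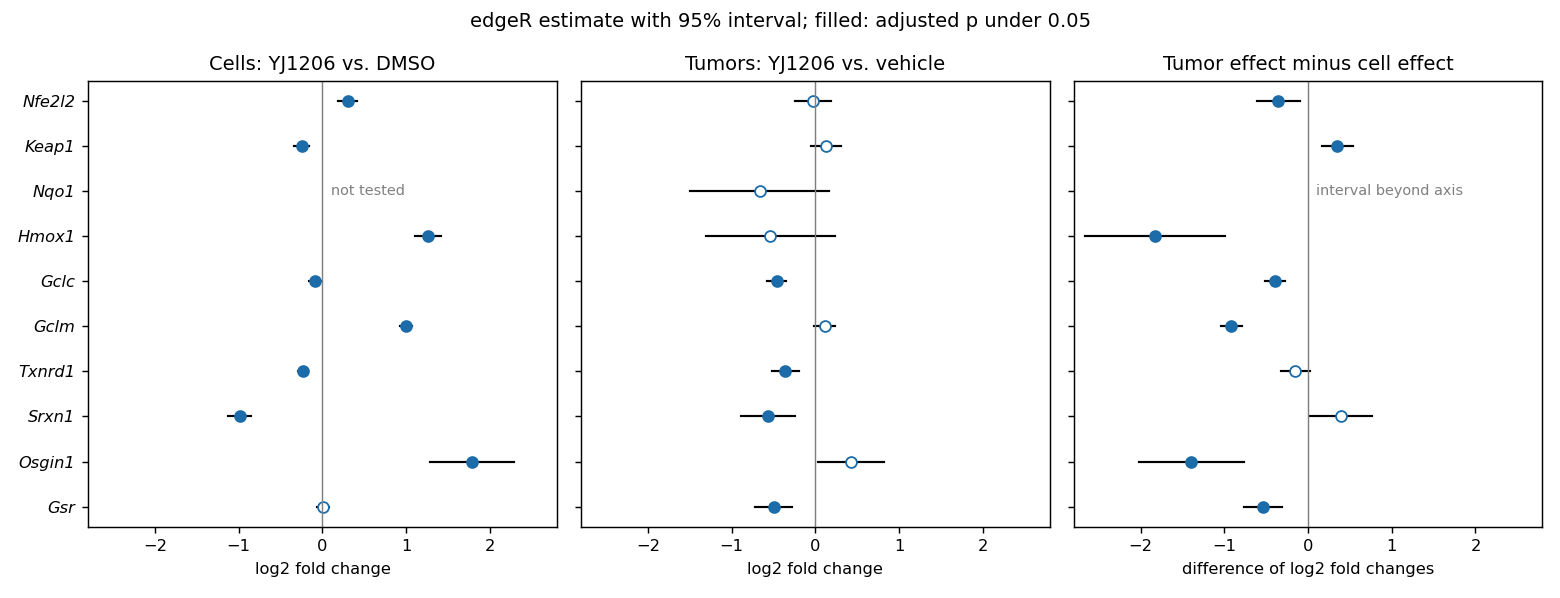
Log2 fold change of each gene with YJ1206 in cells (left) and tumors (middle), and the tumor effect minus the cell effect (right), from edgeR. Points are estimates, lines 95% intervals, and filled points have an adjusted p under 0.05. Hmox1, Gclm and Osgin1 lie well to the right of 0 in cells and left of 0 in the difference, and Gclc, Txnrd1, Srxn1 and Gsr are filled and left of 0 in tumors.

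A further 90 genes of redox metabolism, in 7 groups by function, place the 10 in context. In cells 79 could be tested, of which 45 rose and 15 fell, with a median log2 fold change of 0.23 beside -0.017 for all genes. In tumors 87 could be tested, of which 24 rose and 6 fell, with a median of 0.11 beside 0.0091. Over all genes tested, 76.1% were called in cells (37.8% higher, 38.3% lower) and 26.8% in tumors (11.9% higher, 14.9% lower). The 60 of 79 redox genes called in cells were thus near the share over all genes. The split in cells depended on the scaling, with 75.0% of the called genes higher with TMM, 56.9% with total counts (37 higher, 28 lower) and 48.4% on log2(TPM + 1) (30 higher, 32 lower). The share over all genes called in cells moved as well. It was 49.7% higher with TMM, 36.1% with total counts and 29.2% on log2(TPM + 1). On that scale the median in cells was -0.039 beside -0.24 for all genes, and in tumors 14 were higher and 9 lower. DESeq2 called 25 higher and 12 lower in tumors. With tumor libraries 1 and 2 alone, 0 passed the edgeR test, with 16 higher and 4 lower at an unadjusted p under 0.05. The genes named here are, in each group, the called gene with the largest increase and the one with the largest decrease among those with a mean of at least 5 CPM, and each kept its direction under every alternative run. Counts by group are from edgeR with TMM, and each is to be read beside the shares over all genes given above.

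Of the regulators around NRF2, 7 of 13 rose and 3 fell in cells, where 76.1% of all genes were called. On log2(TPM + 1) 5 were higher and 5 lower. In tumors 3 of 13 fell and 0 rose, with 1 higher at an unadjusted p under 0.05 and 0 in DESeq2. Sqstm1, which encodes the p62 adaptor that competes with NRF2 for KEAP1, rose in cells from 131 ± 7.56 to 305 ± 11.1 CPM (mean ± SD, n = 3). Mafg, a small MAF partner of NRF2, fell in cells from 78.0 ± 3.27 to 61.0 ± 2.36 CPM, while Maff, another small MAF, fell in tumors from 30.1 ± 1.08 to 20.7 ± 3.66 CPM. The call on Maff was lost without vehicle library 3 or without YJ1206 library 3 (adjusted p = 0.0684 and 0.0820, edgeR).

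Of glutathione genes outside the 10, 9 of 17 rose and 2 fell in cells, with 7 higher and 7 lower on log2(TPM + 1). In tumors 9 of 23 rose and 0 fell, with 3 lower at an unadjusted p under 0.05 and 3 lower in DESeq2. Glrx, the glutaredoxin, rose in cells from 5.99 ± 0.27 to 19.4 ± 1.66 CPM. Slc7a11, the cystine importer that supplies cysteine for glutathione, fell in cells from 106 ± 4.07 to 75.6 ± 3.69 CPM. Gstm5, a glutathione S-transferase, rose in tumors from 5.82 ± 1.11 to 11.9 ± 1.01 CPM. Gclc and Gsr, which fell in tumors, thus went against the genes of this group that edgeR called there.

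In the thioredoxin group 11 of 15 genes rose and 1 fell in cells, with 7 higher and 6 lower on log2(TPM + 1). In tumors 5 of 15 rose and 0 fell, with 1 lower at an unadjusted p under 0.05 and 0 in DESeq2. Prdx6, a peroxiredoxin, rose in cells from 40.5 ± 3.87 to 188 ± 0.79 CPM, the largest change among the named redox genes (log2 fold change 2.22 ± 0.048 SE, adjusted p = 3.84e-24, edgeR). Txnrd2, the mitochondrial counterpart of Txnrd1, fell in cells from 16.2 ± 0.59 to 12.1 ± 0.47 CPM. Sesn3, a sestrin, rose in tumors from 69.5 ± 4.12 to 124 ± 12.2 CPM. The falls of Txnrd1 and Srxn1 in both materials were against the direction of most genes that edgeR with TMM called in their group.

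Of genes that detoxify quinones and carbonyls, 6 of 15 rose and 6 fell in cells, with 4 higher and 7 lower with total counts and 3 higher and 7 lower on log2(TPM + 1). In tumors 4 of 15 rose and 1 fell. Ptgr1, a prostaglandin and alkenal reductase, rose in cells from 5.01 ± 0.38 to 8.61 ± 0.54 CPM, and Cyb5r1, a cytochrome b5 reductase, fell from 42.8 ± 1.36 to 19.1 ± 2.73 CPM. Ephx1, the microsomal epoxide hydrolase, rose in tumors from 27.2 ± 0.41 to 52.4 ± 7.88 CPM, and Ugdh, which makes UDP-glucuronate, fell there from 110.4 ± 10.5 to 46.9 ± 4.10 CPM.

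Of heme and iron genes, 6 of 9 rose in cells and 0 fell, also 0 at an unadjusted p under 0.05 and in DESeq2, while on log2(TPM + 1) 4 were higher and 3 lower. In tumors 2 of 10 rose and 1 fell. Ftl1, the ferritin light chain, rose in cells from 1476 ± 19.0 to 3944 ± 183 CPM, together with Hmox1. In tumors Slc48a1, a heme transporter, rose from 51.2 ± 2.44 to 63.3 ± 2.94 CPM and Tfrc, the transferrin receptor, fell from 188 ± 3.45 to 129 ± 11.4 CPM. Neither call held on the log2(TPM + 1) scale (adjusted p = 0.140 and 0.0986, limma), and Slc48a1 lost its call in 3 of the 6 fits without 1 library (adjusted p up to 0.0895, edgeR).

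Genes that supply NADPH, the cofactor of Gsr, Txnrd1 and Nqo1, were split in cells with 3 of 7 higher and 3 lower (2 higher and 4 lower on log2(TPM + 1)), and in tumors 3 were higher and 1 lower. Me1, malic enzyme, rose in cells from 75.7 ± 1.93 to 117 ± 3.77 CPM, whereas G6pdx, the entry enzyme of the pentose phosphate pathway, fell from 147 ± 5.50 to 75.9 ± 3.74 CPM. Idh1 rose in tumors from 47.8 ± 2.73 to 81.4 ± 15.7 CPM and Tkt, transketolase, fell from 138 ± 3.99 to 118 ± 4.97 CPM. Tkt lost its call in 5 of the 6 fits without 1 library. Of the enzymes that clear superoxide and peroxide, 3 of 3 tested rose in cells, among them Cat, catalase, from 20.7 ± 0.40 to 47.2 ± 2.27 CPM, and in tumors 1 of 4 rose, Sod2, from 126 ± 10.7 to 150.5 ± 0.86 CPM. Sod2 lost its call in 5 of the 6 fits without 1 library. Reads of Ftl1, Slc7a11, Me1, Ptgr1, Ugdh, Sesn3 and Sod2 were partly divided with other genes in the authors' counting, as their counts reach a distance of 0.377 to 0.5 from a whole number in the material where each is named. Cyb5r1 was up to 0.0367 from one in the cells and 0.487 in the tumors.

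**Figure D5:**
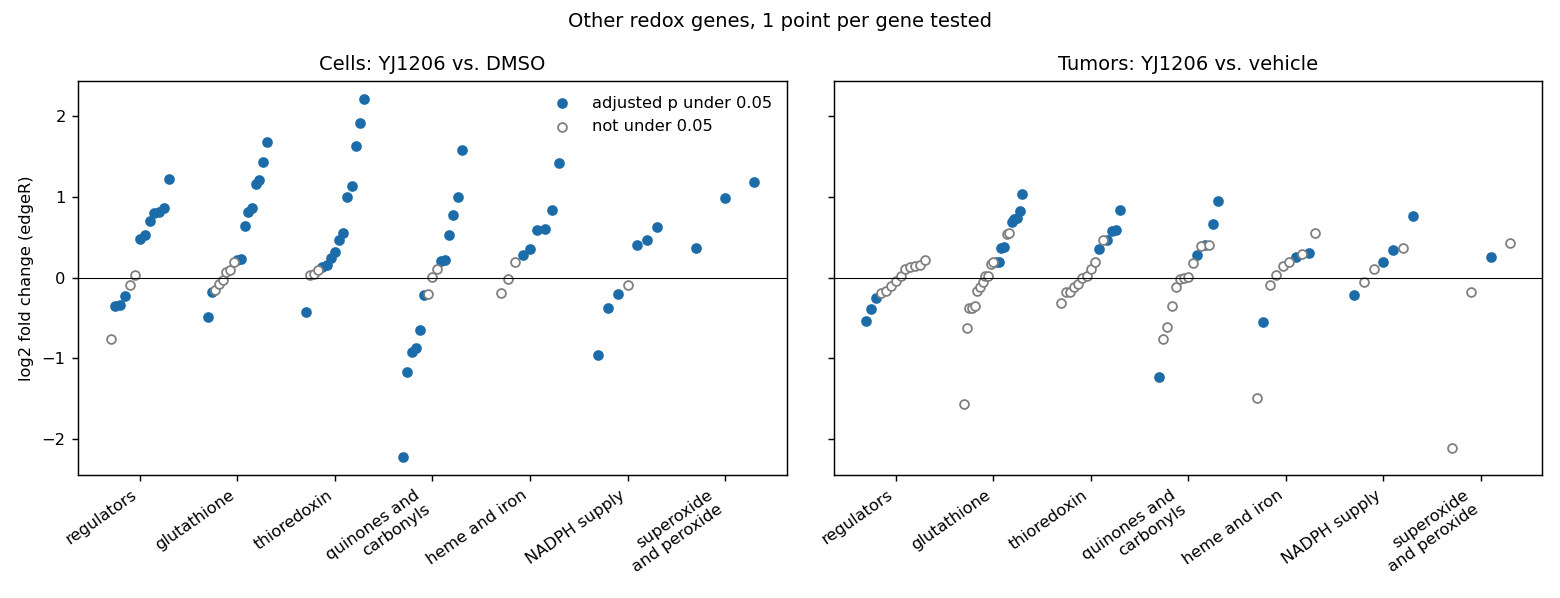
Log2 fold change with YJ1206 of the other redox genes that could be tested, 79 in cells (left) and 87 in tumors (right), 1 point per gene, by functional group on the x axis. Filled points have an adjusted p under 0.05 (edgeR). With this TMM scaling most filled points lie above 0 in both panels, and the quinone and carbonyl group is split evenly in cells. On log2(TPM + 1) the called genes in cells were 30 higher and 32 lower (48.4% higher), beside 29.2% higher over all genes called there.

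Genes whose pattern was most like that of Nfe2l2 were ranked by Pearson correlation over the 12 libraries, each library taken as its log2 difference from the control mean of its own material. Of 15327 genes, the first 5 were Clk3 (r = 0.952), Sco2 (0.941), Pkp3 (0.937), Efna2 (0.932) and D1Ertd622e (0.930). Hmox1 ranked 41 (r = 0.902), Osgin1 706 (r = 0.830) and Gclm 1412 (r = 0.788). Keap1, at r = -0.831, lay near the other end of the ranking. Nqo1 (r = 0.095), Txnrd1 (0.063) and Gclc (0.281) showed little likeness. Gsr was in between (r = 0.505, rank 4443), and Srxn1 ran against Nfe2l2 (r = -0.476, rank 10544). The 12 points share 4 groups and the scaling of 2 tables, so a correlation largely restates how a gene differed between groups, and it is given as a description.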

How the data were processed

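RNA was sequenced from Myc-CaP cells and tumors, 3 libraries in each of 4 groups, after enzymatic removal of ribosomal RNA, although the labels name polyA RNA for the cells and total RNA for the tumors. In the tumor labels a batch tag holds the treatment. The authors deposited estimated counts per gene, not scaled between libraries, and TPM values, which the authors scaled for gene length and library total. The submitters' processing notes name kallisto and the builds GRCm38 and mm10, and the annotation is not given in the sources used here. Gene spans come from GENCODE vM21 (GRCm38), whose versioned identifiers match the tables for all 10 genes. Promoter windows are from RefSeq (GRCm38.p6).

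Counts were rounded and fitted in R 4.3.3 with edgeR 4.0.16 (filterByExpr, TMM, trended dispersion, glmQLFit, glmQLFTest, Benjamini-Hochberg, threshold 0.05), each experiment on its own 6 libraries. The difference of effects was the interaction term of one fit over 12 libraries and 34365 genes with the same identifier in both tables. The edgeR fold changes use that tool's default prior count. A prior count of 2 was used only for log2 CPM, in the ranking by likeness to Nfe2l2 and the checks of library 3 and of same-numbered libraries. Alternatives were DESeq2 1.42.0, its size factors, total counts, no filter, a replicate block, each library left out, libraries 1 and 2 of the tumors alone, and limma 3.58.1 on log2(TPM + 1) and log2(TPM + 0.1). The steps were tested on simulated data in which few genes changed, equally many up and down. Such data cannot show how the scaling behaves where most genes change, as in the cells, where 76.1% were called. Within a group, chi-square per gene separated every pair of libraries (1.91 to 2.82 in cells, 3.54 to 46.7 in tumors), and no 2 were identical. The 10 members, the 90 other redox genes, the markers and the tests were chosen with earlier results of these data known. The 10 members and both targets are always named, and of the other redox genes the called gene with the largest increase and the largest decrease per group at a mean of at least 5 CPM, besides the 5 genes most like Nfe2l2. Intervals are 95%. The floor is 3 counts per library. Some marker genes are not reported here.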

Additional observations from a re-analysis of the deposited data

Results flagged for a closer look

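The effect of YJ1206 differed between tumors and cells, by the interaction term of the edgeR fit over 12 libraries, for 7 of the 10 genes. The differences of the log2 fold changes, tumors minus cells, were -1.82 for Hmox1, -1.39 for Osgin1, -0.91 for Gclm, -0.54 for Gsr, -0.40 for Gclc, -0.35 for Nfe2l2 and 0.35 for Keap1. Over all genes tested, 46.8% differed in the same test. Cells and tumors were sequenced and tabulated apart, so material, library series and the length and route of treatment cannot be told apart in these differences. With groups of 3 libraries, single outlying samples were not tested.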

How the results depend on the processing

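With 1 library left out at a time, the number of the 10 genes called was 7 to 8 in cells, 1 to 5 in tumors and 6 to 8 for the difference of effects, and the number of other redox genes called was 59 to 62 in cells and 11 to 45 in tumors. In tumors the lowest counts were 1 of the 10 genes (Gclc) and 11 other redox genes without YJ1206 library 3, with 13 other redox genes without vehicle library 3 and 17 without YJ1206 library 2. All genes called in tumors numbered 1938 without vehicle library 3, 1877 without YJ1206 library 3 and 2739 without YJ1206 library 2, against 4176. With tumor libraries 1 and 2 alone, 0 of the 10 genes, 0 other redox genes and 1 gene in all passed, with fewer samples in the fit. In the difference of effects, 4 of the 10 genes passed on log2(TPM + 1) and 4 on log2(TPM + 0.1). The share of called genes that were higher in cells was 49.7% with TMM, 36.1% when scaled by total counts and 29.2% on log2(TPM + 1), in tumors in 44.4% with TMM and 34.5% with TPM, and in the difference of effects in 44.6% with TMM, 61.4% on total counts and 63.8% on log2(TPM + 1).

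Some directions changed. In cells Nfe2l2 gave -0.010 on log2(TPM + 1) and -0.010 on log2(TPM + 0.1). Gsr in cells gave -0.18 with total counts, -0.0066 with no filter, -0.30 on both TPM scales, -0.0051 without DMSO library 3 (0.024 without YJ1206 library 1) and -0.0060 in one fit over 12 libraries. Cdk13 in cells, 0.027 in the reported fit, gave -0.16 with total counts, -0.28 and -0.29 on the TPM scales and -0.0041 to 0.039 with 1 library left out. In tumors Nfe2l2 gave 0.017 without vehicle library 1 and 0.013 without vehicle library 3 or YJ1206 library 1, and Cdk13, 0.063 as reported, gave -0.099 and -0.10 on the TPM scales. The difference of effects for Nqo1 gave -0.36 and -0.22 on the TPM scales and -0.67 to 3.40 with 1 library left out (-0.67 without DMSO library 2), and for Txnrd1 0.064 with total counts and 0.093 and 0.091 on the TPM scales. The cause was not tested. Of the values of the 10 genes under alternatives, 420 kept their direction and side of the threshold, 33 lost the call, 6 gained it and 17 reversed.

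Same-numbered libraries of the groups did not deviate together (correlations cells -0.028 to -0.018, tumors -0.030 to 0.0032). No pairing by number was thus seen, though with 3 libraries per group this check cannot exclude one. With the replicate block 8 of the 10 genes were called in cells, 3 in tumors and 7 for the difference of effects. Srxn1 in tumors lost its call in that fit (-0.55, adjusted p = 0.0578, edgeR). Nqo1 in cells, at 0 to 4 counts per library, did not pass edgeR's low-count filter and was not tested in the reported fit.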
